A study of Rattus norvegicus with 14 samples.

Results

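Sulfation, methylation and acetylation enzymes are conjugating enzymes of liver outside the glutathione transferase and UDP-glucuronosyltransferase families, as are those of amino acid conjugation. A set of 8 of them were listed by name: the sulfotransferases Sult1a1, Sult1b1, Sult1e1 and Sult2a1, the methyltransferases Tpmt and Nnmt, and the arylamine N-acetyltransferases Nat1 and Nat2. A gene was measured through a probe (here a transcript cluster of the array) that GEO's platform annotation assigns to exactly 1 gene symbol, and the brightest such probe was used. This rule found 5 of the 8 genes, Sult1a1, Sult1b1, Sult2a1, Tpmt and Nnmt, each with 1 probe, among 14506 genes measured in all. The only probe listed for Nat1 is shared with Nat2, and the only probe listed for Sult1e1 carries that symbol under more than 1 Entrez identifier, so these 3 genes were not tested as genes.

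Livers came from 14 lean female Zucker rats, all heterozygous (fa/+) for the fa mutation of the leptin receptor, which does not make heterozygotes obese, and about 15 weeks old according to the series title. Of these, 7 rats had received a standard diet containing 0.05% by weight of a rosemary extract for 64 days (extract rats), and the other 7 had received the standard diet alone for the same time (control rats). The extract held 40% carnosic acid, a phenolic diterpene of rosemary. The series title gives the dose as 0.5%, and the dose of the sample labels is used here. A separate Affymetrix whole-transcript array was hybridised per rat, so that each value is that of a separate animal. Whole liver RNA was used, and fewer cells of a type and less RNA per cell cannot be told apart.

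Conjugation attaches a small polar or masking group to a foreign compound, hormone or bile acid. Sulfotransferases take the sulfo group from the donor PAPS, small-molecule methyltransferases take the methyl group from S-adenosylmethionine (SAM), and arylamine N-acetyltransferases take the acetyl group from acetyl-CoA. In liver these routes run beside glucuronidation and glutathione conjugation, whose genes are known targets of the xenobiotic receptors and of NRF2, which acts in the response to electrophiles. In rat liver several sulfotransferases are sex-dependent, with Sult2a1 known as a predominantly female form and Sult1e1 as a predominantly male one.

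Values are log2 RMA values, and a log2 fold is always extract minus control. In limma's moderated test with Benjamini-Hochberg adjustment over all 14506 genes, 3.15% of genes passed an adjusted p of 0.05, of which 2.00% of all genes were higher and 1.15% lower in extract rats. Of the calls, 63.5% were higher in extract rats, and 74.2% after each array was centred on its median. The 14 arrays had medians over genes between 6.00 and 6.18 and pairwise correlations across genes between 0.984 and 0.997, and extract rat 4 and control rat 1 received the lowest array weights (0.463 and 0.410). Of 14 hepatocyte markers, 0 were called and all lay above the median gene value. Cyp2b2, a drug-inducible cytochrome P450, and Nqo1, a quinone reductase that NRF2 induces, had log2 folds of 4.24 ± 0.21 and 1.55 ± 0.12 (SE, n = 7 each), with the groups free of overlap in both. The question put to the enzymes below is whether this response of drug metabolism extends to them.

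In the livers of extract rats, 0 of the 5 measured enzymes rose, 1 fell and 4 did not pass, against a background of 2.00% of all genes that rose and 1.15% that fell. The enzyme that fell was Nnmt. The median log2 fold of the 5 was -0.06, against -0.00088 over all genes, and 1 of the 5 had an unadjusted p under 0.05, as did 14.8% of all genes (2154 of 14506). In 0 of the 5 were the groups free of overlap, against 1.09% of all genes with every extract rat above and 0.455% with every extract rat below the controls.

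**Figure D1:**
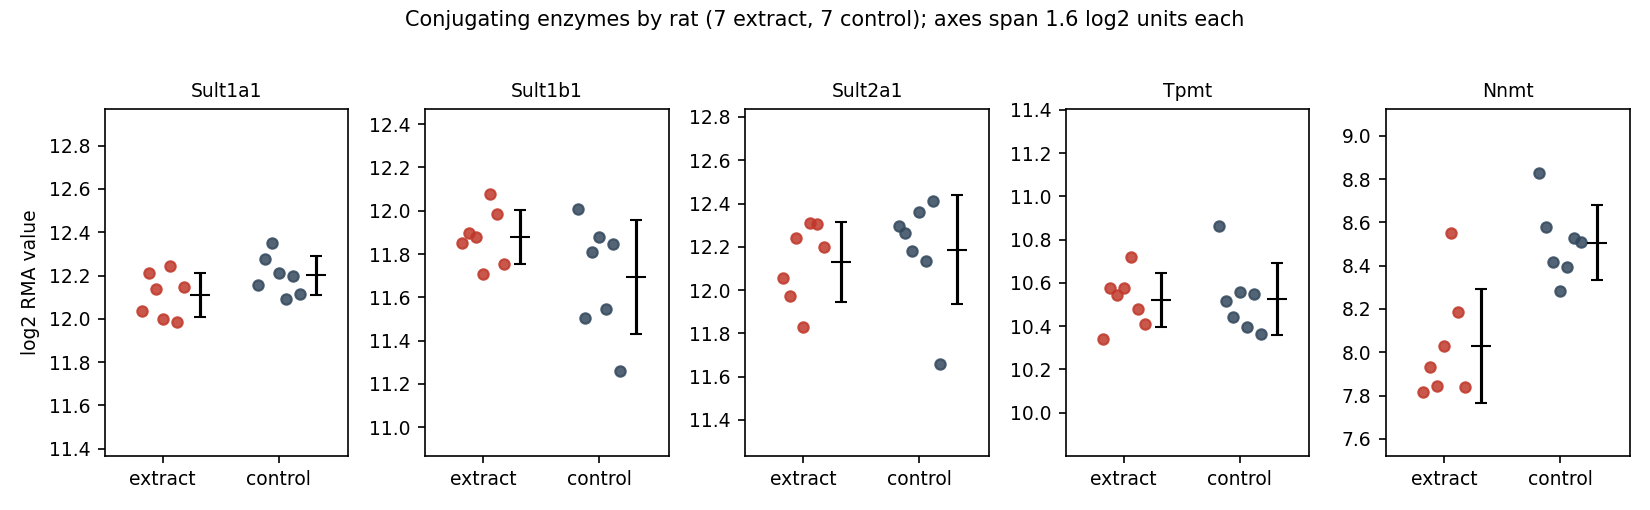
Log2 RMA value (vertical axis) of the 5 measured conjugating enzymes in 7 extract rats (red, left) and 7 control rats (grey, right), 1 point per rat, with the group mean and SD beside them; every panel spans the same height of 1.6 log2 units. In the Nnmt panel 6 of 7 extract rats lie below every control rat and extract rat 5 lies among the controls (means 8.03 in extract rats and 8.51 in control rats); the groups overlap in all 5 panels.

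Sult1a1, the major phenol sulfotransferase of liver, had log2 values from 11.98 to 12.24 in extract rats (median 12.14), against 12.09 to 12.35 in control rats (median 12.20). In all, 3 extract rats lay below every control and the other 4 within the control range. The log2 fold was -0.09 ± 0.06 (SE, n = 7 each; limma adjusted p = 0.57), a fold of 0.939 with a 95% interval from 0.855 to 1.03. A rise of more than 1.03-fold therefore lies outside the interval of this probe.

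Sult1b1, which sulfates phenols and thyroid hormones, had log2 values from 11.71 to 12.08 in extract rats (median 11.88), against 11.26 to 12.01 in control rats (median 11.81). All 7 extract rats lay above the control mean, but only 1 lay above every control rat. The means were 11.88 ± 0.13 in extract rats and 11.69 ± 0.26 in control rats (SD, n = 7 each), so the controls spread more widely, with control rat 7 lowest. The log2 fold was 0.19 ± 0.10 (SE; limma adjusted p = 0.43), a fold of 1.14 with a 95% interval from 0.978 to 1.32.

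Sult2a1, a hydroxysteroid sulfotransferase that also acts on bile acids, ranged from 11.83 to 12.31 in extract rats (median 12.20), against 11.66 to 12.41 in control rats (median 12.26). The groups overlapped throughout, and the lowest value of all 14 was that of control rat 7. The log2 fold was -0.06 ± 0.11 (SE, n = 7 each; limma adjusted p = 0.89), a fold of 0.962 with a 95% interval from 0.821 to 1.13, and it was 0.01 without extract rat 4 and control rat 1.

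Tpmt, the thiopurine S-methyltransferase, ranged from 10.34 to 10.72 in extract rats (median 10.54), against 10.36 to 10.86 in control rats (median 10.52). The means of 10.52 ± 0.12 in extract rats and 10.53 ± 0.17 in control rats (SD, n = 7 each) differed by less than the spread in either group. The log2 fold was -0.01 ± 0.08 (SE; limma adjusted p = 0.99), with a 95% interval of the fold from 0.885 to 1.12. Its sign had no fixed direction: it was positive after median centring (0.03), with array weights (0.01) and without control rat 1 (0.05), the rat with the highest Tpmt value, or without extract rat 1, 6 or 7.

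Nnmt, which methylates nicotinamide with SAM as donor, fell. Its log2 values in extract rats 1 to 7 were 7.82, 7.93, 7.85, 8.03, 8.55, 8.19 and 7.84. In control rats 1 to 7 they were 8.83, 8.58, 8.42, 8.28, 8.39, 8.53 and 8.51. Of the 7 extract rats, 6 lay below every control, and extract rat 5 lay within the control range. The means were 8.03 ± 0.27 in extract rats and 8.51 ± 0.17 in control rats (SD, n = 7 each). The log2 fold was -0.48 ± 0.11 (SE), which is a fold of 0.718 with a 95% interval from 0.612 to 0.843 (limma adjusted p = 0.021). The call was lost without extract rat 1 or extract rat 3 (adjusted p = 0.051 and 0.052) and when each gene was tested with unequal variances (adjusted p = 0.092), while the log2 fold stayed between -0.56 and -0.42 whichever rat was left out.

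Markers of other liver cells also differed between the groups. The counts of falls below stand against 1.15% of all genes. The 12 measured macrophage and Kupffer cell markers were all lower in the mean of extract rats (median log2 fold -0.28), and 2 of them fell, Marco (-0.73) and Vsig4 (-0.51). The log2 of their summed linear level ran from 12.32 to 12.70 in extract rats, against 12.74 to 12.99 in control rats. Of the 10 stellate cell and fibroblast markers 1 fell, Pdgfrb (-0.37), and their median log2 fold was -0.22, with summed levels of 10.64 to 11.06 in extract rats, against 11.02 to 11.18 in control rats. The 6 liver endothelial markers were all lower but 0 were called (median -0.18, summed levels of 11.69 to 12.35 in extract rats, against 12.17 to 12.35 in control rats). Of 6 cholangiocyte markers only 2 were lower in the mean of extract rats, and 1 of these fell, Prom1 (-2.22). The median log2 fold of the 6 was 0.14. Their summed levels were 7.56 to 8.30 in extract rats, against 8.62 to 9.28 in control rats. Prom1 was the brightest of the 6 in control rats (mean 8.36) and weighs most in these sums. The 14 hepatocyte markers had a median of -0.03, with 16.65 to 16.75 in extract rats, against 16.66 to 16.81 in control rats. The part of these cells in the fall of Nnmt was not tested.

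Genes around Nnmt on the nicotinamide route were also compared. Of 17 measured genes of NAD and nicotinamide handling, 2 rose and 0 fell, against 2.00% and 1.15% of all genes. Their median log2 fold was 0.02. In 7 of the 17 the unadjusted p of limma was under 0.05, against 14.8% of all genes. Aox1, the aldehyde oxidase that oxidises N-methylnicotinamide, the product of Nnmt, had a mean of 11.68 ± 0.15 in extract rats and 11.07 ± 0.29 in control rats (SD, n = 7 each). This is a fold of 1.53 (log2 fold 0.62 ± 0.11 SE, limma adjusted p = 0.00397), with 6 of 7 extract rats above every control, in the direction opposite to Nnmt. Nadsyn1, the glutamine-dependent NAD synthetase, rose 1.37-fold (limma adjusted p = 0.022), a call lost without control rat 6 (adjusted p = 0.0504) and with unequal variances (0.13). Without control rat 1, 1 gene of this list fell, Aox3, another aldehyde oxidase (log2 fold -0.54, adjusted p = 0.044), named here after its value was seen.

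**Figure D2:**
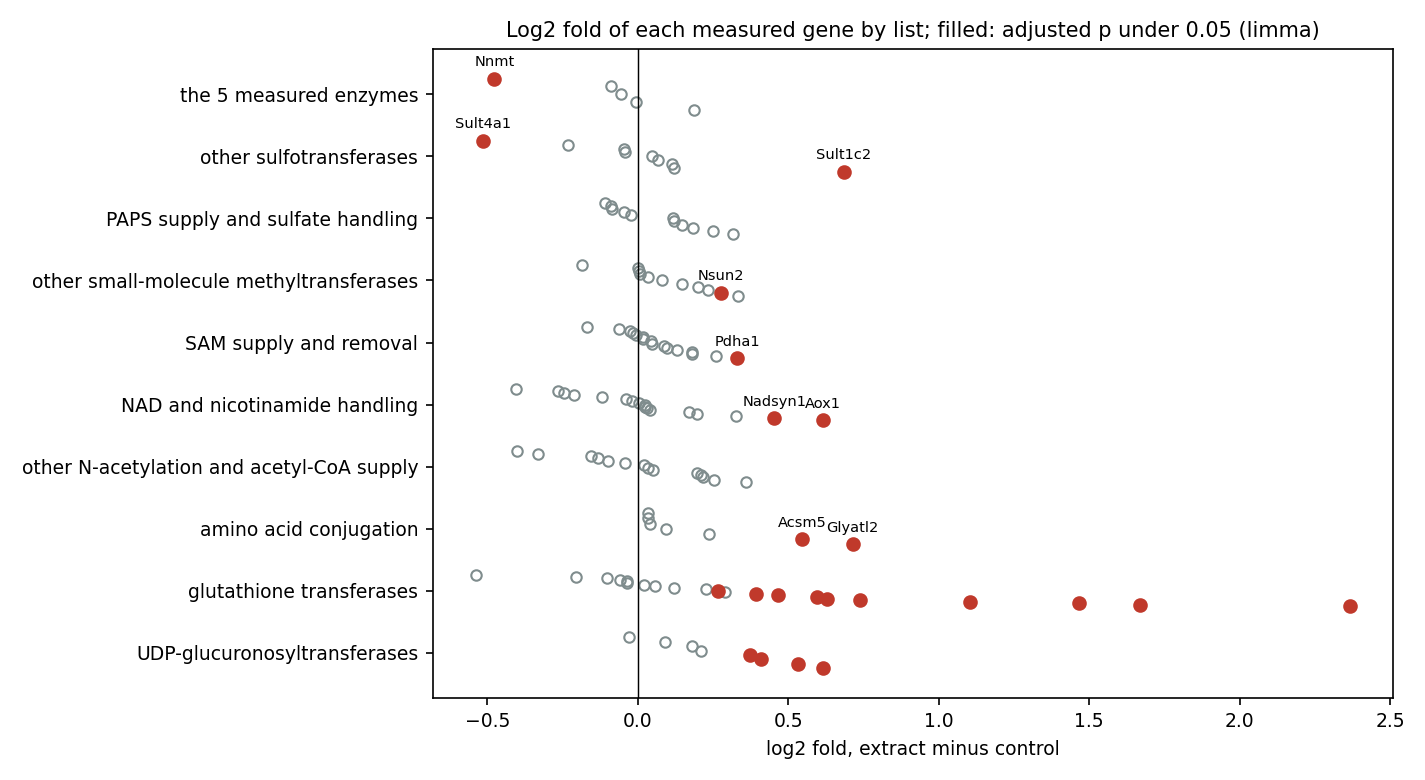
Log2 fold, extract minus control (horizontal axis), of every measured gene of the 5 conjugating enzymes and 9 related gene lists (rows), 1 point per gene; filled points passed limma's adjusted p of 0.05. Filled points lie on the right in 10 of 21 glutathione transferases and 4 of 8 genes listed as UDP-glucuronosyltransferases. Nnmt and Sult4a1 are the filled points left of 0.

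Among the other sulfotransferases, 1 of 9 measured genes rose, 1 fell and 7 did not pass, with a median log2 fold of 0.05. Over all genes, 2.00% rose and 1.15% fell. The riser was Sult1c2, of the 1C subfamily of phenol sulfotransferases. Its log2 values in extract rats ran from 9.90 to 10.56 (median 10.34), against 9.29 to 9.84 in control rats (median 9.71), so that the lowest extract rat exceeded the highest control rat. The log2 fold was 0.68 ± 0.10 (SE, n = 7 each), a fold of 1.61 (limma adjusted p = 0.000502). Both further probes annotated to Sult1c2 are shared with its close paralogue Sult1c2a. They rose 1.58-fold and 1.52-fold (limma adjusted p over all probes = 0.00198 and 0.0036), again with all 7 extract rats above all controls. How far the 3 probes separate these paralogues was not tested, so the rise belongs to Sult1c2, Sult1c2a or both.

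**Figure D3:**
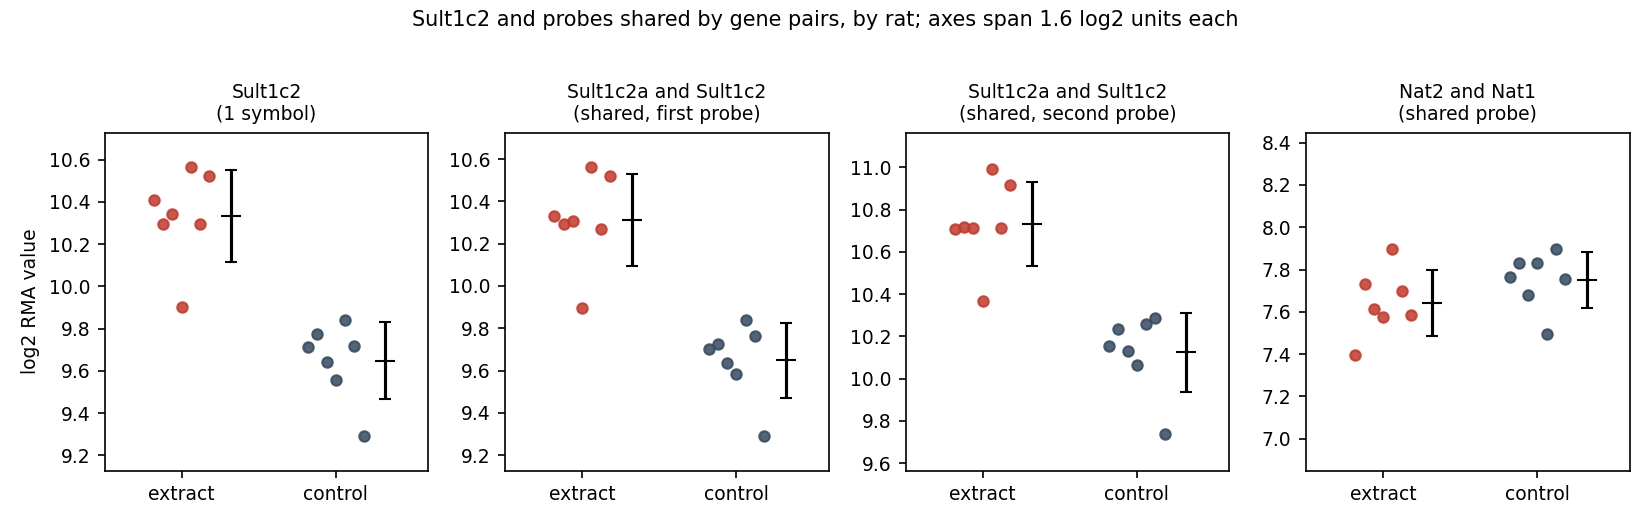
Log2 RMA value (vertical axis) in 7 extract rats (red, left) and 7 control rats (grey, right), 1 point per rat with group mean and SD, for the Sult1c2 probe, both probes shared by Sult1c2a and Sult1c2, and the probe shared by Nat2 and Nat1. The groups are free of overlap in the first 3 panels and overlap in the last.

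Sult4a1, a sulfotransferase known mainly from brain, fell, with means of 5.04 ± 0.22 in extract rats and 5.56 ± 0.32 in control rats (SD, n = 7 each; log2 fold -0.52, limma adjusted p = 0.038). Its extract mean was lower than 5.11, the control median over the whole array, where RMA compresses differences. The call was lost without any of 10 of the 14 rats (extract rats 1, 3, 4, 5, 6 and 7, and control rats 1, 2, 4 and 5; adjusted p from 0.051 to 0.085). A probe shared by Sult2a2 and Sult2a6, close relatives of Sult2a1, had a log2 fold of -0.09 ± 0.08 (SE; limma adjusted p over all probes = 0.73).

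Of 11 genes listed under PAPS supply and sulfate handling, limma called 0, against 3.15% of all genes. Of the 11, 1 had an unadjusted p under 0.05 (14.8% of all genes), and log2 folds ran from -0.11 to 0.31. The gene with the smallest p was Bpnt1, the phosphatase that clears PAP, the by-product of sulfation. It had a mean of 8.40 ± 0.18 in extract rats and 8.09 ± 0.18 in control rats (SD, n = 7 each; log2 fold 0.31, limma adjusted p = 0.079). Bpnt1 passed with array weights, after repeated quantile normalization and after median centring (adjusted p = 0.037, 0.039 and 0.025).

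The probe listed for Sult1e1, the oestrogen sulfotransferase, had log2 values from 2.59 to 2.78 in extract rats and from 2.60 to 2.91 in control rats, far below the median of all probes on these arrays (5.10 in extract rats and 5.11 in control rats). Its log2 fold was -0.04 ± 0.06 (SE, n = 7 each; limma adjusted p over all probes = 0.89). At so low a signal a difference may not have been detectable. In the GRCr8 gene table Sult1e1 and Sult1d1 lie beside Sult1b1 on chromosome 14, and a row of UDP-glucuronosyltransferase genes follows on the other side of Sult1b1. Sult1d1 had a log2 fold of 0.05 (limma adjusted p = 0.89) and Sult1b1 of 0.19. Ugt2a1, next to Sult1b1, had 0.21 (adjusted p = 0.055), and Ugt2a3, the next gene after it, rose 1.45-fold (adjusted p = 0.016). Ugt2b, farther along the row, had 0.09 (limma adjusted p = 0.67), and Ugt2b37 and Ugt2b35 beyond it rose. Ugt2a1, Sult1d1 and Ugt2b are named for their position, after their values were seen. The probes of Ugt2a1 and Sult1d1 were dim. Means were 3.25 in extract rats and 3.04 in control rats for Ugt2a1, and 3.36 in extract rats and 3.31 in control rats for Sult1d1.

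Methylation genes besides Nnmt were compared in the same way. Of 11 other genes listed as small-molecule methyltransferases, 1 rose and 0 fell, against 2.00% and 1.15% of all genes. Their median log2 fold was 0.08. In 4 of the 11 the unadjusted p of limma was under 0.05, against 14.8% of all genes. The riser was Nsun2, which methylates RNA and not small molecules (1.21-fold, limma adjusted p = 0.047), and its call was lost without any of 10 of the 14 rats (extract rats 2, 3, 4, 5 and 7, and control rats 3, 4, 5, 6 and 7; adjusted p from 0.067 to 0.11). Of 16 genes listed under SAM supply and removal, 1 rose and 0 fell, against the same shares of all genes. Their median log2 fold was 0.05, and 4 had an unadjusted p under 0.05 in limma. The riser was Pdha1, a subunit of pyruvate dehydrogenase that makes acetyl-CoA and does not handle SAM (1.26-fold, limma adjusted p = 0.024, all 7 extract rats above the controls). Its call was lost without extract rat 2 or 7 or control rat 4 or 6 (adjusted p from 0.0502 to 0.053) and with unequal variances (0.071).

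For acetylation, the probe shared by Nat2 and Nat1 cannot be assigned to either gene. It had log2 values from 7.40 to 7.90 in extract rats (median 7.62), against 7.49 to 7.90 in control rats (median 7.76), and the groups overlapped widely. Its log2 fold was -0.11 ± 0.08 (SE, n = 7 each; limma adjusted p over all probes = 0.66), with a 95% interval from -0.28 to 0.06. Of 14 genes listed under other N-acetylation and acetyl-CoA supply, which include Aadac, Acy1 and Acy3, limma called 0, against 3.15% of all genes. Of the 14, 4 had an unadjusted p under 0.05 (14.8% of all genes), and log2 folds ran from -0.40 to 0.36. Pdha1, which makes acetyl-CoA but was listed under SAM supply, is not among the 14. It rose 1.26-fold (limma adjusted p = 0.024), a call lost in the alternatives given above. The smallest p was that of Acss3, an acyl-CoA synthetase of mitochondria (log2 fold 0.20, adjusted p = 0.16). Without control rat 1, 1 gene of this list fell, Acly, which makes cytosolic acetyl-CoA (log2 fold -0.54, adjusted p = 0.048), named after its value was seen. With all 14 rats Acly had a log2 fold of -0.40 (limma adjusted p = 0.31).

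Conjugation routes outside the 8 listed enzymes are set beside them here. Over all genes, 2.00% rose and 1.15% fell, and 1.09% had every extract rat above the controls. Of 7 measured genes of amino acid conjugation, 2 rose, 0 fell and 5 did not pass. Glyatl2, a glycine N-acyltransferase-like gene, had a mean of 11.46 ± 0.14 in extract rats and 10.74 ± 0.23 in control rats (SD, n = 7 each; 1.64-fold, limma adjusted p = 0.000295). Acsm5, of the medium-chain acyl-CoA synthetases, rose 1.46-fold (adjusted p = 0.000186), and in both genes all 7 extract rats lay above all controls. Of 21 glutathione transferases, 10 rose and 0 fell (median log2 fold 0.27), the risers by 1.20-fold to 5.15-fold. Of 8 genes listed by symbol as UDP-glucuronosyltransferases, 4 rose and 0 fell (median 0.29), by 1.30-fold to 1.53-fold. The 8 include Ugt8, which transfers galactose and not glucuronate (log2 fold -0.03), and no Ugt1a gene. The glutathione transferases with the smallest p were Gstm2, Gstm3, Gstp1 and Gstm6l, which rose 2.15-fold, 3.18-fold, 5.15-fold and 1.67-fold. The control means of Gstm3 (3.88) and Gstm6l (4.90) lay below the median of all probes, where RMA compresses folds. The 4 glucuronosyltransferases were Ugt2b1, Ugt2a3, Ugt2b37 and Ugt2b35, with log2 folds of 0.37, 0.53, 0.62 and 0.41, and with unequal variances the last 3 lost their calls (adjusted p = 0.079, 0.10 and 0.082). Ugt2b35 also lost it without extract rat 2 or 5 or control rat 2 (adjusted p from 0.052 to 0.056). The difference between the families as groups was not tested.

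Of 16 measured receptors and factors known to act on genes of conjugation, 2 rose and 0 fell, against 2.00% and 1.15% of all genes. Their median log2 fold was 2.2e-05. In 7 of the 16 the unadjusted p of limma was under 0.05, against 14.8% of all genes. Nr1i3, which encodes the xenobiotic receptor CAR, had means of 7.45 ± 0.38 in extract rats and 5.08 ± 0.11 in control rats (SD, n = 7 each; limma adjusted p = 6.37e-09), the control mean lying near the median of all probes. Vdr, the vitamin D receptor, had 4.23 ± 0.08 in extract rats and 3.90 ± 0.12 in control rats (adjusted p = 0.00773), with both means below that median. For Esr1, the oestrogen receptor alpha, named after its value was seen, the log2 fold was -0.55 (adjusted p = 0.10). Leaving out control rat 1 gave -0.72 (adjusted p = 0.000346), and Foxa1 fell there too (-0.37, adjusted p = 0.037).

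The promoter windows of 5 of the 8 listed genes (Sult1a1, Sult1b1, Sult1e1, Sult2a1 and Tpmt) were in RefSeq's GRCr8 table, each running from 250 bases before to 50 bases after the start. Both strands were searched for the antioxidant response element to which NRF2 binds (TGACNNNGC), the core of the xenobiotic response element of AHR (GCGTG) and a STAT5-type element (TTCNNNGAA). These letters stand in 12.1%, 29.7% and 8.87% of all 33469 promoters of the same length. Tpmt was the only one of the 5 with a match, with 1 antioxidant response element beginning 153 bases before the start and 3 xenobiotic cores beginning 121, 111 and 73 bases before it, in a window of 68.0% G and C, and its level differed by less than the spread within groups. The Tpmt window is shown as the only one of the 5 with matches, and capitals mark them, of which the antioxidant response element and the last 2 cores read on the other strand. The Tpmt window lies at chr17:17850176-17850475 on the plus strand. The antioxidant response element is the first run of capitals and the xenobiotic cores are the others. Positions count from the start used for this window, whereas the GRCr8 gene table begins Tpmt at 17850308, within the window. A match is a run of letters and no measure of binding.
Tpmt: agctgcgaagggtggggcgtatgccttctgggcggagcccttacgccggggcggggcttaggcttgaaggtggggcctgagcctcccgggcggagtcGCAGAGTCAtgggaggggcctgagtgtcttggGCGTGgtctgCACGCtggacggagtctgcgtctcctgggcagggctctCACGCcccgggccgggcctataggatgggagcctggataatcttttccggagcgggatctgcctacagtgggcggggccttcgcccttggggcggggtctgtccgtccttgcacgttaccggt

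Rats of the same group differed in some of these enzymes together. Extract rat 5 had the highest value of its group in all 5 enzymes, extract rats 1 and 4 had the lowest in 2 each and extract rat 6 in 1. Control rat 1 was highest in 3 enzymes and control rat 7 lowest in 3 (Sult1b1, Sult2a1 and Tpmt). Among other named genes, extract rat 5 was also highest of its group in Sult1c2, Glyatl2, Gstm3, Gstm6l, Ugt2b1, Ugt2a3 and Ugt2b37. It was lowest in Aox1 and Nadsyn1. Control rat 7 was also lowest in Sult1c2, Cyp2b2, Acss3, Gstm3, Gstm6l, Ugt2b1, Ugt2b35 and Ugt2b37, and highest in Bpnt1 and Nadsyn1. How often these rats were highest or lowest over all genes was not counted. After removal of the group means, Sult1b1 and Sult2a1 varied together over the 14 arrays (Pearson's r = 0.77, Spearman's rho = 0.69), and r was 0.61 without control rats 7 and 1, the rats farthest from the median of Sult1b1. Tpmt and Nnmt had r = 0.68 and rho = 0.41, but r = 0.16 without control rat 1 and extract rat 5, so that relation rests on these 2 rats. These were the first and second of the 10 pairs among the 5 enzymes, whose r ran down to 0.12. The correlations are descriptions: the points share arrays and their normalization.

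**Figure D4:**
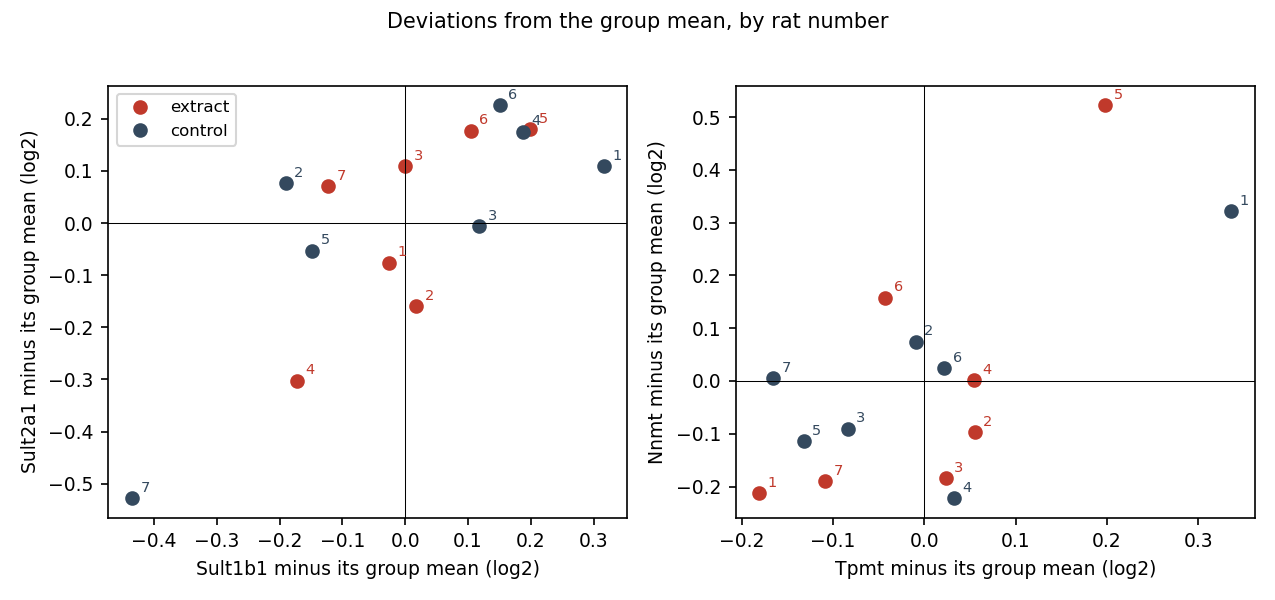
Deviation of each rat from its group mean in log2 units, for Sult2a1 against Sult1b1 (left) and Nnmt against Tpmt (right), with extract rats in red and control rats in grey, numbered by rat. Control rat 7 lies lowest in both Sult1b1 and Sult2a1, and extract rat 5 and control rat 1 stand alone at the top right of the Tpmt and Nnmt panel.

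The genes most like each enzyme were taken as those with the highest correlation of deviations from the group means over the 14 arrays, out of all named genes. Picking the highest r among so many genes favours a high r by itself. Whether any of these genes share a control was not tested. For Sult2a1 they were Cyp2c12, the female-predominant cytochrome P450 of rat liver (r = 0.92), and Adgre4 (0.91). For Sult1b1 they were Mtch2 (0.93), a protein of the outer mitochondrial membrane, and Glyat (0.90), the glycine N-acyltransferase. Tpmt was most like Tmem30a (0.95) and Tmco1 (0.94), and Sult1a1 like Drg1 (0.84) and Hdhd3 (0.81). For Nnmt they were Or10al5b (0.90) and Sass6 (0.89), both on probes with group means below 4, under the median of all probes.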

How the data were processed

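Total liver RNA of 14 rats was hybridised to whole-transcript Affymetrix arrays, 1 per rat. The authors deposited log2 expression values of 29215 probes; they were made by RMA in the program Affymetrix Expression Console 1.1.2, per the submitters' processing notes. The log2 scale was read from the range of 1.95 to 14.0, and options, genome build and detection calls are not given in the sources used here. RMA compresses folds near background. Groups and rat numbers came from the sample titles. No batch was given.

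The platform annotation lists 15633 probes, 15310 with 1 symbol and 323 with several (6 of these repeat the same symbol), leaving 13582 unnamed here. Of the 15310 Entrez identifiers, 15279 matched NCBI's GRCr8 gene table and 0 symbols changed. The brightest probe stood for each of 527 genes with several probes. Groups were compared with limma 3.58.1 in R 4.3.3 (lmFit and eBayes, two-sided, no covariate; an alternative tested each gene with unequal variances), Benjamini-Hochberg adjusted over 14506 genes, or over all probes for shared probes. Errors of folds are limma's SE, and intervals are at 95%. The number of arrays limits precision (median SE 0.087).

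Enzymes, related lists and markers were chosen with earlier results of these data known. Text names all listed enzymes, up to 5 called genes of a list (the 4 with the smallest p where more passed, the smallest p where none did), and the 2 genes most like each enzyme. In 5 simulated runs with 200 changed genes among the 14506, limma found 17.2% of those with a log2 change of 0.25, 85.2% at 0.5 and 100% at 1, with 4.79% false calls. Alternatives were 11 planned settings, leaving out each of the 14 arrays, and 2 added after the data were seen. Promoter sequences are RefSeq's. Figures used Python 3.11.15 and matplotlib 3.10.9.

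Same-numbered rats of the groups are different animals, and their deviations correlated between -0.46 and 0.28 across genes (4 of 7 over 0.1), so the numbers were not taken as pairs.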

Additional observations from a re-analysis of the deposited data

Results flagged for a closer look

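In groups of 7 rats, 4 values stood apart from the rest of their group by Dixon's criterion, among 54 groups of 27 genes examined, and chance flags about 1 group in 20. Sult2a1 was 11.66 in control rat 7, against at least 12.13 in the other control rats. Tpmt was 10.86 in control rat 1, against at most 10.56 in the others. Sult1c2 was 9.90 in extract rat 4, against at least 10.30 in the other extract rats, and this value still lay above every control. Gstp1 was 11.85 in extract rat 7, against at least 12.25 in the others.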

How the results depend on the processing

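In all 27 alternatives, 0 of the listed enzymes rose and Sult1a1, Sult1b1 and Nnmt kept their signs. Left-out rats gave log2 folds of -0.11 to -0.07 for Sult1a1, 0.11 to 0.24 for Sult1b1, -0.14 to -0.01 for Sult2a1, -0.039 to 0.050 for Tpmt, and -0.56 to -0.42 for Nnmt (adjusted p 0.00163 to 0.052, 0 or 1 enzyme called lower). Tpmt turned positive after median centring (0.028), with array weights (0.011) and without the 2 arrays of lowest weight (0.041), where Sult2a1 did too (0.013). Nnmt (-0.48) lost its call with unequal variances (adjusted p = 0.092, 0 enzymes called lower). With the rat number as a replicate block its log2 fold was -0.48 (adjusted p = 0.060) and 0 enzymes were called lower; the same setting called 0 of the other methyltransferases higher, and 2 of 7 extract rats correlated best with their own number.

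Over all genes, 209 to 329 rose and 116 to 292 fell with a rat left out (292 without control rat 1). The unequal-variance test called 171 higher and 56 lower, every probe 94 lower, array weights 262 lower and an adjusted p of 0.1 291 lower. Of the related lists, 1 or 2 calls decide most counts. The fall of Sult4a1 (0 to 1 with a rat left out) went to 0 after median centring, with either filter on dim genes, over every probe, in the unequal-variance test and without the 2 arrays of lowest weight; either filter left 1 receptor called higher. The rise of Nsun2 (0 to 1 with a rat left out) went to 0 after repeated quantile normalization, over every probe, with an intensity trend, in the unequal-variance test and without the 2 arrays of lowest weight. PAPS supply had 1 rise after repeated quantile normalization, after median centring, with array weights and at an adjusted p of 0.1 (Bpnt1 each time), and 0 with any rat left out. In the unequal-variance test SAM supply had 0 rises, NAD handling 1 and UDP-glucuronosyltransferases 2 (Ugt2b1 and Ugt2a1). Either filter on dim genes left 8 glutathione transferases called higher. With a rat left out, rises were 0 to 1 in SAM supply, 1 to 2 in NAD handling, 3 to 5 in UDP-glucuronosyltransferases, 8 to 11 in glutathione transferases, 2 in amino acid conjugation and 1 in the other sulfotransferases, and falls 0 to 1 in NAD handling and in N-acetylation. Among receptors, array weights called 2 lower (Esr1 and Nfe2l2), the fit without the 2 arrays of lowest weight 1 (Esr1), and left-out rats 0 to 2. At an adjusted p of 0.1, 1 glutathione transferase was lower (Gstm5). Where a call changed, the cause was not tested. Probes near background limit what can be said of Sult1e1, Sult4a1, Sult1d1, Ugt2a1, Vdr and the control level of Gstm3.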
